A study of Mus musculus with 4 samples.

Results

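The corticosteroid genes of the stria vascularis (SV) described here are 10 genes: the receptors Nr3c1 and Nr3c2, the hormone-converting enzymes Hsd11b1 and Hsd11b2, the hormone-induced genes Sgk1, Tsc22d3 and Fkbp5, and the channel subunits Scnn1a, Scnn1b and Scnn1g. They were found by gene symbol in the gene list of every library, and all 10 were present, among 27998 genes listed for cells and 48816 listed for nuclei. The tissue came from CBA/J mice aged 30 days and was profiled as 3 captures of single cells and 1 capture of single nuclei, each a single suspension pooled from several mice. The labels name no mutation, hormone or other treatment for any library, so the comparisons are between the cell types of 1 tissue and not between hormone states. Cells were released with warm trypsin, and nuclei by detergent lysis in the cold.

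The SV is the epithelium of the cochlear lateral wall that secretes potassium into the endolymph. Marginal cells face the endolymph, intermediate cells are pigmented cells beneath them, basal cells seal the layer from the spiral ligament, and spindle and root cells lie at its edges and in the adjoining ligament. Corticosteroids cross the membrane and bind the glucocorticoid receptor (encoded by Nr3c1) or the mineralocorticoid receptor (Nr3c2), which then enter the nucleus and bind DNA. The mineralocorticoid receptor binds cortisol or corticosterone as tightly as aldosterone, and in kidney tubules the enzyme encoded by Hsd11b2 protects it by inactivating the glucocorticoid. Hsd11b1 encodes the enzyme that works mainly in the opposite direction and regenerates active glucocorticoid. Sgk1 encodes a kinase that both receptors induce and that keeps the epithelial sodium channel, ENaC, at the cell surface. ENaC is built from the products of Scnn1a, Scnn1b and Scnn1g. Tsc22d3 encodes the leucine zipper protein GILZ, and Fkbp5 a co-chaperone that lowers the hormone affinity of the glucocorticoid receptor. Both are induced by glucocorticoids in many tissues.

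A set of 3 promoter windows is shown because they hold letters of the glucocorticoid response element, the DNA sequence that both receptors bind. Only the first holds the full palindrome, and the others hold a single half-site. A further Sgk1 window with a half-site, at chr10:21881934-21882183, is not shown. Each window is the 250 bases before a RefSeq transcript start on GRCm38.p6, read 5′ to 3′ on the strand of the gene, and capitals mark the motif matches. The first Sgk1 window lies at chr10:21993640-21993889 on the plus strand, the second at chr10:21991973-21992222 on the plus strand, and the Tsc22d3 window at chrX:140600523-140600772 on the minus strand.
Sgk1, start with the full palindrome: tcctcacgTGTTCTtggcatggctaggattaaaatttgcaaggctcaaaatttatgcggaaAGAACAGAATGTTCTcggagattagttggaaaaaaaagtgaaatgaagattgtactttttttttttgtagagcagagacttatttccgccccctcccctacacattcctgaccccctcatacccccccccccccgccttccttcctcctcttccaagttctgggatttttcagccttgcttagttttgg
Sgk1, start with a TATA box and a half-site: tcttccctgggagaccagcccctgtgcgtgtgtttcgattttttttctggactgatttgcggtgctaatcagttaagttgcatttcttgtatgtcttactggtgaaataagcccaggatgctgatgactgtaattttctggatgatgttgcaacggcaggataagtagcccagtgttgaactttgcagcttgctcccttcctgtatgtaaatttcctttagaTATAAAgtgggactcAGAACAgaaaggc
Tsc22d3, start with a half-site: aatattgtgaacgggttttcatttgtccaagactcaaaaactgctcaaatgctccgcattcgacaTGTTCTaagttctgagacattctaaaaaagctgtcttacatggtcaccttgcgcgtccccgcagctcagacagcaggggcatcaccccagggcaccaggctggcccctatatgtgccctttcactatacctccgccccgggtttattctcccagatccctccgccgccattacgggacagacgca

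The motifs searched on both strands were the half-site AGAACA, the palindrome in which AGAACA is followed after any 3 bases by its reverse complement TGTTCT, the looser core of that palindrome with GNACA and TGTNC in the same arrangement, and the TATA box TATAAA. Every palindrome holds the half-site and the core. The palindrome was found in 3 of 32851 RefSeq promoter windows of the same length (0.00913%), and 1 of these was the Sgk1 window, where it starts 189 bases before the transcript start. The core was found in 127 windows (0.387%), the half-site in 5284 (16.1%) and the TATA box in 4063 (12.4%). Of the 10 genes, 7 had windows, 14 in all, of which 6 belong to Sgk1 and 3 to Tsc22d3. Half-sites were found in 4 of the 14 windows, all of Sgk1 or Tsc22d3. Windows for Nr3c1, Hsd11b2 and Scnn1a were not used here. A match describes the letters of a window and not a bound site, and no library here measured binding.

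Of the barcodes, 377, 1314 and 1461 cells and 9723 nuclei were kept, at a median of 5050, 4880.5, 3872 and 1497 UMIs (unique molecular identifiers, each a counted RNA molecule). Between 0 and 32 barcodes were shared by any pair of libraries. Clusters were named from marker genes, so that every type name below means cells like that type. Marginal cells numbered 12, 56 and 33 in captures 1, 2 and 3, intermediate cells 131, 452 and 413, spindle/root cells 10, 29 and 24, and basal cells 9, 23 and 6. In nuclei there were 2592 marginal, 1472 intermediate, 652 basal and 203 spindle/root nuclei. Between 53.3% and 54.9% of the cells of a capture and 38.9% of the nuclei were in clusters left without a name, which enter no comparison unless stated.

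The type labels were checked against their markers, summed as CPM, the UMIs of a gene per 1000000 UMIs of the type. All 7 marginal markers were detected in spindle/root cells, at 4107 to 4718 CPM over the captures against 4261 to 4587 CPM in marginal cells, so the spindle/root cells carried marginal markers in full. Spindle/root markers lay between 4219 and 5303 CPM in spindle/root cells and between 129 and 377 CPM in marginal cells, which separated the types in that direction. In nuclei the marginal markers were at 10204 CPM in marginal and 2067 CPM in spindle/root nuclei. Intermediate markers reached 6341 to 11191 CPM in marginal cells and 2427 to 5284 CPM in basal cells, against 19367 to 27296 CPM in intermediate cells and 360 to 548 CPM in spindle/root cells. Erythroid markers were at 1637 to 2132 CPM in the 4 types of capture 3 and at 172 to 355 CPM in captures 1 and 2. Their part in the results below was not tested, except where a value without such cells is given.

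Among the 4 SV types of single cells, Sgk1 was high in marginal and spindle/root cells and low in intermediate and basal cells, whereas Nr3c2, Tsc22d3 and Fkbp5 were highest in basal cells. Nr3c1 was found in all 4 types. UMIs were summed per capture and type, and a type was set against the other 3, averaged, by edgeR's quasi-likelihood test over the 12 sums, with p-values adjusted over 4636 genes. Only 4 of the 10 genes, Nr3c1, Nr3c2, Sgk1 and Tsc22d3, passed the filter on low counts. Nr3c2 passed only through its basal sums, and Tsc22d3 mostly through them. Of these 4, 1 differed in marginal cells (36.1% of all tested genes did), 4 in intermediate cells (44% of all), 2 in spindle/root cells (46.4%) and 4 in basal cells (36.9%). With backgrounds of that size, a call on its own says little about these genes, and the size of each difference is given with it. The capture was a block in the fit, so the p-values rest on the spread left among the 12 sums after type and capture. The estimate of that spread is largely shared across genes and rests little on the 12 sums of a single gene. The p-values refer to these 3 captures only.

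**Figure D1:**
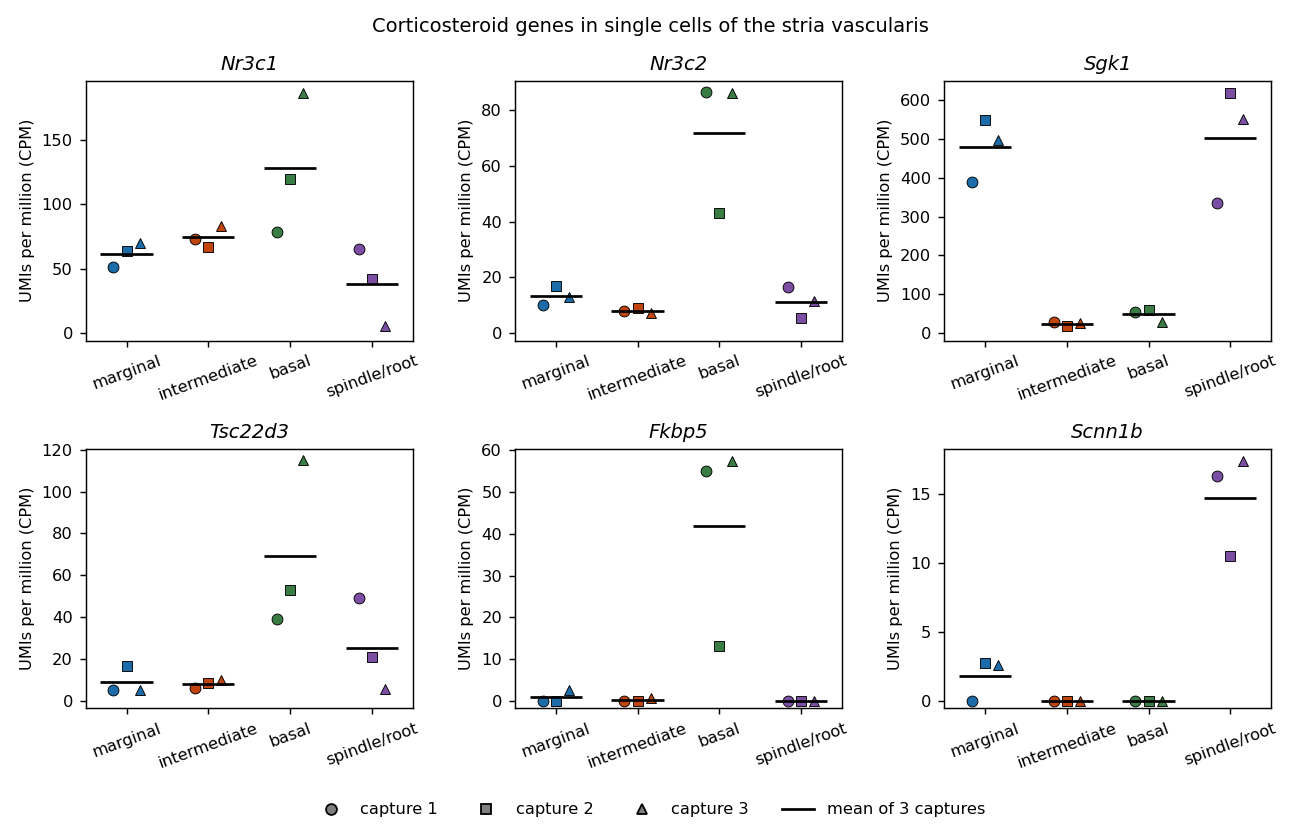
Level of 6 genes in single cells, in CPM on a linear axis, by SV type. Each point is 1 capture (circle, capture 1, square, capture 2, triangle, capture 3) and the bar is the mean of the 3 captures. Sgk1 lies between 335 and 620 CPM in every capture of marginal and spindle/root cells and at or below 59.6 CPM in every capture of intermediate and basal cells, and the basal points of Nr3c2 lie above all others.

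Nr3c1 (chromosome 18, 39410545 to 39519421, minus strand, GRCm38) encodes the glucocorticoid receptor. In basal cells it was at 78.5, 119 and 187 CPM in captures 1, 2 and 3, a mean of 128 ± 54.6 CPM (SD, n = 3). In intermediate cells it was at 72.9, 66.5 and 83.4 CPM (74.3 ± 8.54, SD, n = 3), and in marginal cells at 51.1, 64.0 and 69.7 CPM (61.6 ± 9.52, SD, n = 3). Spindle/root cells had 65.4, 42 and 5.81 CPM (37.7 ± 30.03, SD, n = 3), the last from a single UMI in capture 3. The ranges of neighbouring types overlapped, and capture 3 held both the highest and the lowest value. Against the mean of the other types, Nr3c1 was higher in basal cells by 1.08 ± 0.27 on the log2 scale (fit and SE, adjusted p = 0.000951) and in intermediate cells by 0.53 ± 0.18 (adjusted p = 0.0141). It was lower in spindle/root cells, at −1.46 ± 0.35 (adjusted p = 0.000393), and did not pass the test in marginal cells (−0.15 ± 0.24, adjusted p = 0.668). Without capture 3, the spindle/root difference was −0.78 with an adjusted p of 0.0821, and without capture 2 the basal one was 1.08 with an adjusted p of 0.0638. The intermediate difference rested on the scaling as well, since it was 0.16 (adjusted p = 0.482) with library sizes alone, a scaling under which the median of all genes in intermediate cells was −0.373. With each capture left out in turn it ran from 0.32 to 0.71, and only 2 members were then called in intermediate cells.

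Nr3c2 (chromosome 8, 76899442 to 77245012, plus strand) encodes the mineralocorticoid receptor. Its basal levels were 86.4, 43.1 and 86.2 CPM (71.9 ± 24.9, SD, n = 3), from 30 UMIs in all. Marginal cells had 10.2, 16.7 and 12.9 CPM (13.3 ± 3.25, SD, n = 3), intermediate cells 7.999, 8.92 and 7.24 CPM (8.05 ± 0.841, SD, n = 3) and spindle/root cells 16.4, 5.25 and 11.6 CPM (11.1 ± 5.57, SD, n = 3). Every basal value lay above every value of the other 3 types. The spindle/root range overlapped those of marginal and of intermediate cells. Every marginal value lay above every intermediate one, though that pair did not pass the test (0.54 ± 0.46, adjusted p = 0.359). Fibrocytes, connective tissue cells outside the SV types, had 52.8 and 10.9 CPM in captures 2 and 3, from 9 and 2 UMIs. The basal difference was 2.43 ± 0.44 on the log2 scale (adjusted p = 5.25e-06), and basal cells also differed from each other type taken singly, by 2.04 ± 0.49 from marginal (adjusted p = 0.000482), 2.58 ± 0.44 from intermediate (adjusted p = 9.21e-07) and 2.67 ± 0.67 from spindle/root cells (adjusted p = 0.000713). Because Nr3c2 passed the filter only through its basal sums, these tests are not independent of the filter. In the same model with no filter, the basal difference was 2.40 ± 0.43 (adjusted p = 5.25e-07). In intermediate cells Nr3c2 was lower than the mean of the others, at −1.01 ± 0.41 (adjusted p = 0.0353), a call that was lost when any 1 capture was left out. In 3 other clusterings its direction reversed, to 0.95, 1.10 and 1.08 with adjusted p from 0.574 to 0.642. Neither marginal cells (−0.29 ± 0.48, adjusted p = 0.678) nor spindle/root cells (−1.13 ± 0.66, adjusted p = 0.158) passed the test. One gene listed on the same strand, Gm23260, overlaps Nr3c2.

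Hsd11b1 (chromosome 1, 193221634 to 193264075, minus strand) was hardly detected in the 4 SV types. Intermediate cells held 6 UMIs in all, and marginal, basal and spindle/root cells held 0, which allows up to 2.31, 6.01 and 6.19 CPM at 3 counts. Outside the 4 types, fibrocytes, connective tissue cells of the adjoining spiral ligament, had 64.6 CPM in capture 2 and 10.9 CPM in capture 3, 11 and 2 UMIs. These 13 UMIs came from 5 cells, and the value of capture 3 was below the 16.4 CPM that 3 counts would give in its fibrocytes. Hsd11b2 (chromosome 8, 105518755 to 105523988, plus strand) had no UMI in any kept cell of any capture and none in any kept nucleus. Over all 9723 nuclei, 0 UMIs left room for at most 0.199 CPM by the exact 95% Poisson interval, and over all cells of capture 2 for at most 0.472 CPM. Intervals and limits of this kind cover counting error only.

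Sgk1 (chromosome 10, 21882184 to 21999903, plus strand) is the gene with the full palindrome in 1 of its promoter windows. Marginal cells had 389, 548 and 498 CPM (479 ± 81.7, SD, n = 3), and spindle/root cells 335, 620 and 552 CPM (502 ± 149, SD, n = 3). Intermediate cells had 27.6, 18.2 and 24.8 CPM (23.5 ± 4.81, SD, n = 3), and basal cells 55.0, 59.6 and 28.7 CPM (47.8 ± 16.7, SD, n = 3). The high pair and the low pair of types were far apart in every capture. Sgk1 was higher by 2.46 ± 0.14 on the log2 scale in marginal cells (adjusted p = 4.02e-24) and by 2.40 ± 0.17 in spindle/root cells (adjusted p = 1.42e-20), and lower in intermediate cells (−3.05 ± 0.21, adjusted p = 1.40e-20) and basal cells (−1.81 ± 0.27, adjusted p = 5.76e-08). Marginal and spindle/root cells differed by 0.04 ± 0.16 (adjusted p = 0.863), less than the spread between captures, and intermediate cells lay below basal cells by 0.94 ± 0.35 (adjusted p = 0.0295). Within spindle/root cells, the spindle-like cluster of 44 cells had 621 CPM and the root-like cluster of 19 cells, which expresses Epyc, had 231 CPM. In the cluster of 44 cells, the mean log2 excess over all other cells was 3.07 for marginal and 2.75 for spindle/root markers. That cluster may therefore hold marginal-like cells. Their part in the 621 CPM and in the small difference between marginal and spindle/root cells was not tested. The 2 marginal clusters of the main setting had 433 and 640 CPM. In a clustering at resolution 1.2, a spindle/root cluster of 15 cells, with P2rx2 and Anxa1 among its top genes, stood beside a marginal cluster of 33 cells. Without doublet removal such clusters held 12 and 32 cells. Which of the 44 cells they hold was not tested. The spindle/root excess depended on how that class was drawn. In 3 other clusterings, where the class held 13 to 16 cells in captures 2 and 3 and the 4 cells of capture 1 were too few to be summed, it was 1.34, 0.92 and 1.26 with adjusted p of 1.43e-05, 0.0122 and 1.66e-05.

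Tsc22d3 (chromosome X, 140539528 to 140600659, minus strand) followed the basal pattern. Basal cells had 39.3, 53.0 and 115 CPM (69.0 ± 40.3, SD, n = 3), marginal cells 5.11, 16.7 and 5.17 CPM (8.995 ± 6.68, SD, n = 3), and intermediate cells 6.22, 8.57 and 9.91 CPM (8.23 ± 1.87, SD, n = 3). Spindle/root cells had 49.1, 21.0 and 5.81 CPM (25.3 ± 21.9, SD, n = 3), and their highest value overlapped the basal range. Outside the SV types, fibrocytes had 52.8 and 92.7 CPM in captures 2 and 3, from 9 and 17 UMIs, within the basal range. Tsc22d3 was higher in basal cells by 2.10 ± 0.45 on the log2 scale (adjusted p = 9.01e-05) and lower in intermediate cells (−1.18 ± 0.37, adjusted p = 0.00645). It passed the filter mostly through basal sums, so the basal test is not independent of the filter. In the same model with no filter, the basal difference was 2.08 ± 0.41 (adjusted p = 1.12e-05). Basal cells exceeded spindle/root cells by 1.47 ± 0.59 (adjusted p = 0.0394). The intermediate call was lost without capture 1 (−0.94, adjusted p = 0.0917), and without capture 2 the gene did not pass the filter on low counts. Marginal cells (−1.07 ± 0.48, adjusted p = 0.0699) and spindle/root cells (0.14 ± 0.55, adjusted p = 0.851) did not pass the test.

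**Figure D2:**
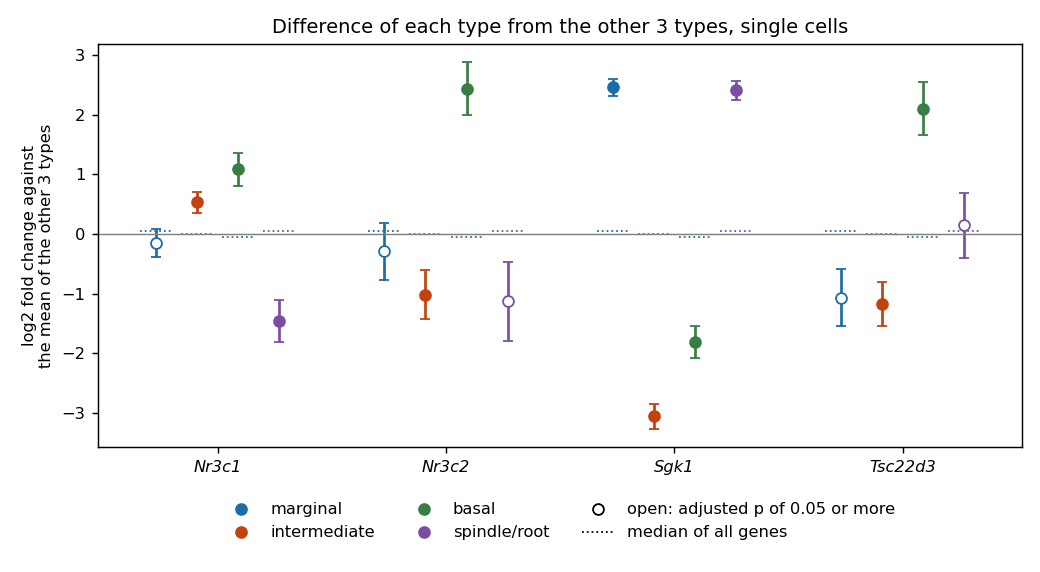
Log2 fold change of each SV type against the mean of the other 3 types in single cells, for the 4 genes that passed the filter on low counts, with bars of 1 SE from the edgeR fit on 12 sums. Filled points have an adjusted p under 0.05, open points do not, and dotted lines give the median of all 4636 genes. Sgk1 stands at 2.46 in marginal and 2.40 in spindle/root cells, and Nr3c2 and Tsc22d3 at 2.43 and 2.10 in basal cells.

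Taking the types in pairs, 16 of 24 combinations of gene and pair differed. Between marginal and basal cells, and between basal and spindle/root cells, all 4 genes did (38% and 40.9% of all genes). Between intermediate and basal cells 3 did (38.1%), with Nr3c1 at −0.41 ± 0.25 (adjusted p = 0.193) the exception. Between marginal and intermediate cells (42.8%) and between intermediate and spindle/root cells (48.8%) 2 did, Sgk1 and Nr3c1, and between marginal and spindle/root cells 1 did (38.4%), Nr3c1, at 0.98 ± 0.40 (adjusted p = 0.0455). With only 4 genes and shares of 38% to 48.8% over all genes, these counts do not rank the pairs of types. When cells rich in intermediate markers were left out, 9 combinations differed, and neither Nr3c2 nor Tsc22d3 was tested, because only Nr3c1 and Sgk1 then passed the filter. Basal cells were few, 6 to 23 a capture. A further 57 cells with basal markers formed a cluster led by Cdh5, an endothelial gene, and were left unnamed. With them counted as basal, the basal differences were 2.05 for Nr3c2 (adjusted p = 1.52e-06) and 1.90 for Tsc22d3 (adjusted p = 8.11e-06).

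Fkbp5 (chromosome 17, 28399094 to 28517527, minus strand) did not pass the filter on low counts. Its basal levels were 55.0, 13.2 and 57.4 CPM, from 15 UMIs in 13 of 38 cells. Of the other types, marginal cells held 1 UMI, intermediate cells 2 and spindle/root cells 0, although intermediate cells were sequenced to 6665602 UMIs and basal cells to 498937. The 3 basal values lay above all 9 others. Outside the SV types, fibrocytes had 11.7 and 38.2 CPM in captures 2 and 3, from 2 and 7 UMIs. In spindle/root cells, however, 3 counts would give 24.5, 15.75 and 17.4 CPM in captures 1, 2 and 3, above the 13.2 CPM of basal capture 2. In the same model with no filter, over 15405 genes, the basal difference had an adjusted p of 5.29e-08. No fold is given for it, because the spindle/root sums hold no UMI. That model held 9 of the 10 genes, without Hsd11b2. Of these, 5 differed in basal cells (13% of all genes), 3 in spindle/root cells (16%), 3 in intermediate cells (19.6%) and 1 in marginal cells (11.3%).

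The sodium channel subunits were near the limit of detection. Scnn1b (chromosome 7, 121865038 to 121918514, plus strand) had 16.4, 10.5 and 17.4 CPM in spindle/root cells, 7 UMIs in 6 of 63 cells, and 0, 2.78 and 2.58 CPM in marginal cells, with no UMI in intermediate or basal cells. Its spindle/root values lay above all others, and it was the third gene called in spindle/root cells in the model with no filter (adjusted p = 0.00484). These values rest on 2, 2 and 3 UMIs, and in basal cells of capture 3 as much as 43.1 CPM would give only 3 counts. Scnn1a (chromosome 6, 125320659 to 125344943, plus strand) gave 3 UMIs in marginal, 4 in intermediate, 2 in spindle/root and 0 in basal cells. Scnn1g (chromosome 7, 121734479 to 121768475, plus strand) gave 2 UMIs, both in spindle/root cells of capture 2. No cell type held all 3 subunits at more than a few UMIs, and at this depth a level of up to 2.31 CPM in marginal and 6.01 CPM in basal cells would give about 3 counts.

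The nuclei came from 1 library, so they give levels with exact 95% Poisson intervals for counting error and no test. They included 98 Reissner's membrane, 163 fibrocyte, 207 B cell, 71 neutrophil and 480 erythroid nuclei beside the SV types. Levels are compared between types within the nuclei and not with the cells, since the suspension and the gene list differed. Nuclei labelled erythroid by their markers serve as a background for the shares of nuclei with a UMI of Nr3c2 and Sgk1. They do not serve so for Nr3c1, which was at 35.6 CPM (23.6 to 51.4) in 1 erythroid cluster of 122 nuclei and at 2.68 CPM (0.869 to 6.25) in the other, of 358. Counts from nuclei can include unspliced RNA of long genes such as Nr3c2.

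Nr3c1 varied little between nuclear types. It was at 99.4 CPM in Reissner's membrane, 97.5 in B cells, 92.2 in fibrocytes, 91.4 in basal, 89.8 in intermediate, 63.5 in neutrophils, 62.1 in marginal and 56.1 in spindle/root nuclei. The interval of every one of these types overlapped that of its neighbour in the order, and erythroid nuclei, both clusters pooled, lay below all of them at 12.4 CPM (8.56 to 17.5). Marginal nuclei (54.9 to 69.9) lay below intermediate nuclei (78.5 to 102).

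Nr3c2 spread far more widely, and basal nuclei were again at the top. They had 745 CPM (696 to 798), from 832 UMIs, followed by Reissner's membrane at 589 (469 to 730) and fibrocytes at 480 (407 to 561). The basal interval overlapped that of Reissner's membrane. Marginal nuclei had 322 CPM (306 to 340), spindle/root nuclei 224 (178 to 279) and intermediate nuclei 142 (128 to 158), each with an interval clear of the next. B cell, erythroid and neutrophil nuclei were at 23.8, 13.6 and 11.5 CPM. The basal level was 3.24-fold the mean of the other 3 SV types. After every nucleus was thinned to 500 UMIs, 30.7% of basal nuclei held an Nr3c2 UMI (exact 95% binomial interval 27.2% to 34.4%, and 61.5% unthinned), against 0.208% of erythroid nuclei (0.00527% to 1.16%, and 5.42% unthinned), at median depths of 1528.5 and 5277 UMIs. Among nuclei without a name the thinned share was 1.27% (0.936% to 1.68%), above the erythroid share but with overlapping intervals.

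Sgk1 was highest in marginal nuclei, at 319 CPM (303 to 336), 2.80-fold the mean of the other 3 SV types. Spindle/root nuclei came next at 213 CPM (168 to 267), with an interval below the marginal one. Reissner's membrane nuclei had 163 CPM (103 to 245), fibrocytes 105 (72.4 to 146), basal nuclei 91.4 (74.5 to 111) and intermediate nuclei 36.9 (29.7 to 45.3). The order of the SV types was that of marginal and spindle/root above basal above intermediate. Thinned to 500 UMIs, 12.7% of marginal nuclei held an Sgk1 UMI (11.4% to 14.0%, and 34.8% unthinned) and 0.833% of erythroid nuclei did (0.228% to 2.12%, and 7.92% unthinned), at median depths of 1393.5 and 5277 UMIs. Nuclei without a name had Sgk1 at 89.3 CPM (82.2 to 96.9), near the basal level. Of these unnamed nuclei, 4.20% held an Sgk1 UMI after thinning (3.58% to 4.89%), a higher background than the erythroid one. The root-like nuclei had 253 CPM (187 to 334) and the spindle-like nuclei 166 (109 to 242), with overlapping intervals.

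Fkbp5 and Tsc22d3 were again highest in basal nuclei among the SV types. Fkbp5 was at 94.96 CPM (77.7 to 115) in basal nuclei, from 106 UMIs in 87 nuclei, and at 8.41 (1.74 to 24.6) in spindle/root, 2.97 (1.58 to 5.07) in marginal and 2.81 (1.13 to 5.78) in intermediate nuclei. This was 20.1-fold the mean of the other SV types, with no interval of theirs reaching it. Fibrocytes followed at 55.3 CPM (32.8 to 87.5), which overlapped the basal interval, and erythroid nuclei were at 1.88 CPM (0.611 to 4.39). Tsc22d3 was at 25.1 CPM (16.7 to 36.3) in basal nuclei, 28 UMIs, 7.62 (4.59 to 11.9) in intermediate, 5.61 (0.679 to 20.3) in spindle/root and 2.28 (1.09 to 4.20) in marginal nuclei. It was higher still in B cells at 150 CPM (115 to 192), neutrophils at 139 (88.7 to 206) and fibrocytes at 58.4 (35.2 to 91.2).

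Hsd11b1 was at 86.1 CPM (57.2 to 124) in fibrocyte nuclei, 28 UMIs, and at 75.0 CPM (39.9 to 128) in neutrophil nuclei, 13 UMIs. Basal nuclei had 6.27 CPM (2.52 to 12.9), intermediate nuclei 5.21 (2.78 to 8.92), spindle/root nuclei 2.80 (0.0710 to 15.6) and marginal nuclei 1.37 (0.502 to 2.98), and Reissner's membrane nuclei held none. The fibrocyte and neutrophil intervals lay above those of all 4 SV types. Together with the absence of Hsd11b2 UMIs, the 2 types of nuclei with the most Nr3c2, basal and Reissner's membrane, held few or no UMIs of either enzyme. The absence in Reissner's membrane nuclei leaves room for up to 26.2 CPM of Hsd11b1. Fibrocyte nuclei, next in Nr3c2 at 480 CPM, held the most Hsd11b1, so the 2 genes did not run opposite across types.

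**Figure D3:**
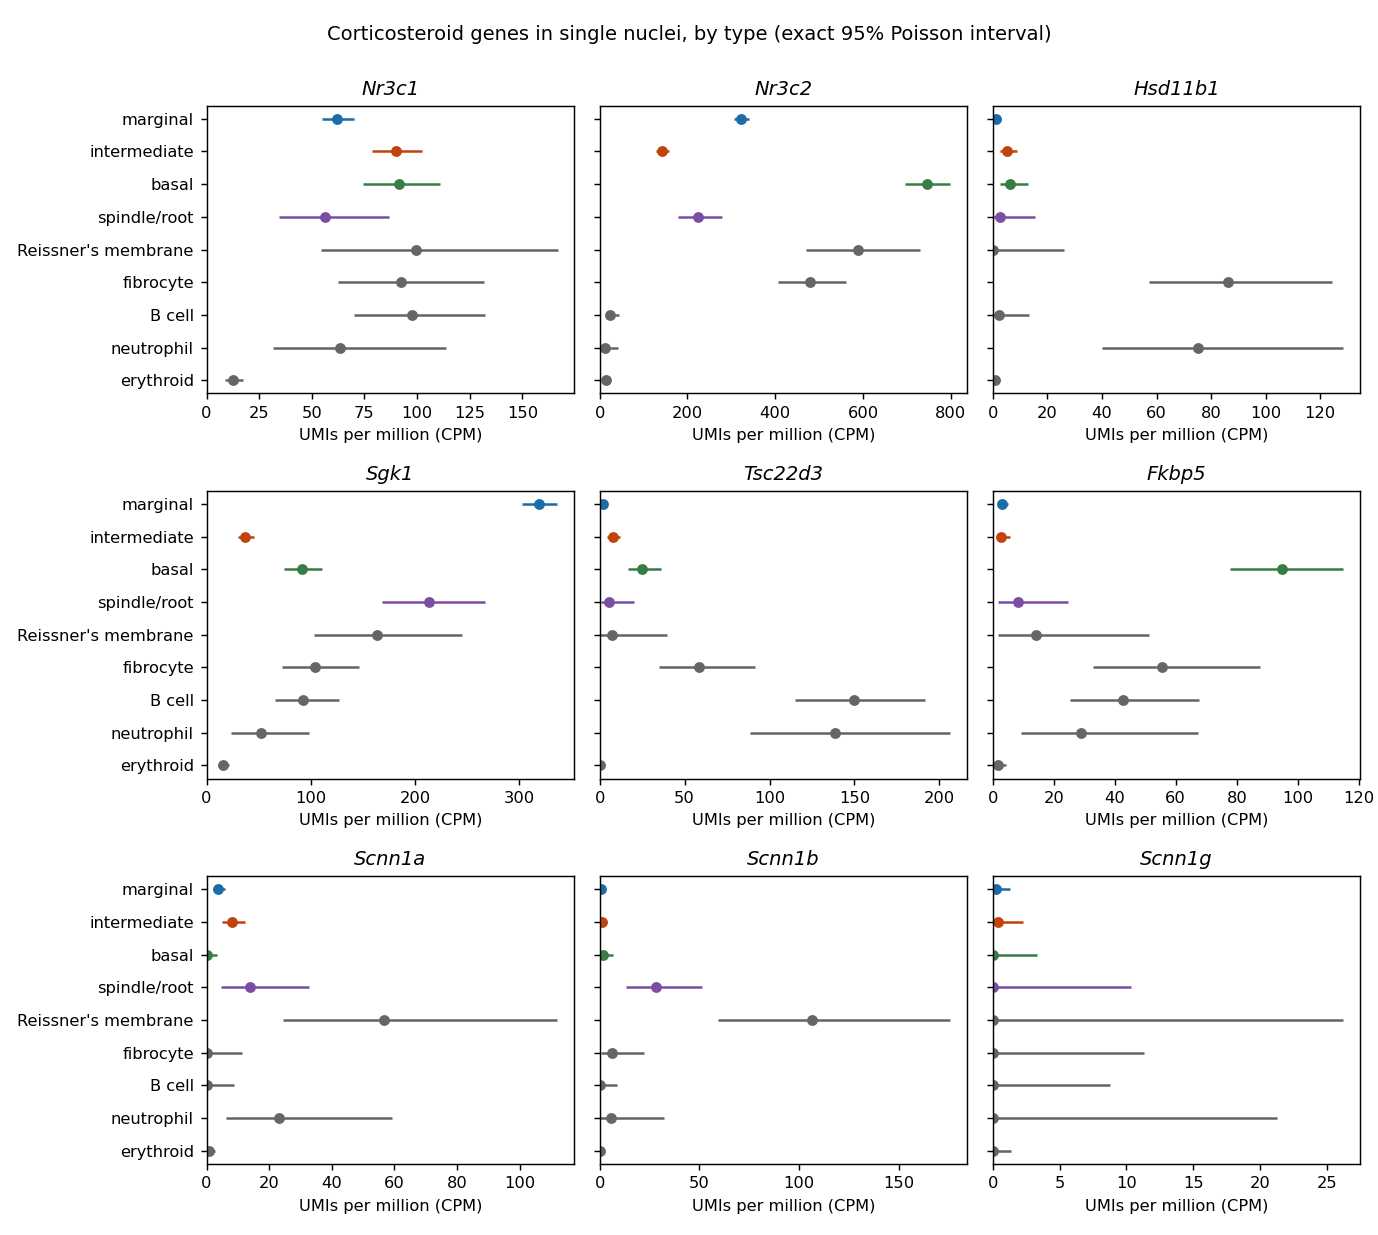
Level of 9 genes in single nuclei by type, in CPM on a linear axis from 0, with exact 95% Poisson intervals as bars. Points are levels, colours mark the 4 SV types and grey the other types. Nr3c2 and Fkbp5 are highest in basal nuclei (745 and 94.96 CPM), Sgk1 in marginal nuclei (319 CPM), Hsd11b1 in fibrocyte nuclei (86.1 CPM) and Scnn1b in Reissner's membrane nuclei (106 CPM). Hsd11b2 is not drawn, since it had no UMI.

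Scnn1b, the beta subunit, was highest in Reissner's membrane nuclei, the thin epithelium that closes the endolymph space on its other side, at 106 CPM (59.6 to 176), 15 UMIs in 15 of 98 nuclei. Spindle/root nuclei had 28.0 CPM (13.5 to 51.6), 10 UMIs in 10 nuclei, 8 of them root-like (41.2 CPM) and 2 spindle-like (12.3 CPM). The other SV types were at or below 1.79 CPM, and erythroid nuclei held none. Scnn1a, the alpha subunit, was at 56.8 CPM (24.5 to 112) in Reissner's membrane nuclei, 8 UMIs, and at 14.0 CPM (4.55 to 32.7) in spindle/root nuclei, 5 UMIs, whereas basal nuclei had none (0 to 3.30 CPM). Neutrophil nuclei lay between the first 2, at 23.1 CPM (6.29 to 59.1) from 4 UMIs, with an interval that overlapped both. Intermediate nuclei had 8.02 CPM of Scnn1a (4.90 to 12.4), but 13 of these 20 UMIs were in a single nucleus, and 7 of 16 UMIs in marginal nuclei were in one as well. Scnn1g gave 1 UMI in marginal and 1 in intermediate nuclei and 0 in all other named types.

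The surroundings of the channel were described by a list of 23 ENaC regulators and aldosterone response genes, of which 18 were tested. This list and those below were chosen with earlier results of these data known. Their counts and medians therefore describe the listed genes and are no test of a list. In marginal cells 10 were higher and 1 lower (21.4% and 14.7% of all genes), with a median difference of 0.67 on the log2 scale against 0.046 over all genes. In spindle/root cells 8 were higher and 4 lower (26.6% and 19.8%), with a median of 0.39 against 0.051. Intermediate cells had 4 higher and 7 lower (21.7% and 22.2%, median −0.84 against −0.0063), and basal cells 3 higher and 7 lower (19.3% and 17.5%, median −0.54 against −0.056).

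Of the genes for serine proteases that activate ENaC by cleavage, and for their inhibitors, Prss8, St14 and Spint1 were highest in marginal and spindle/root cells. Prss8, which encodes prostasin, was at 37.9 ± 10.2 CPM (SD, n = 3) in marginal and 68.2 ± 21.7 CPM in spindle/root cells, and basal cells held 0 UMIs. St14, which encodes matriptase, was at 68.9 ± 16.7 and 68.8 ± 19.2 CPM (SD, n = 3) in these types, and its inhibitor gene Spint1 at 95.5 ± 15.2 and 137 ± 15.2 CPM. All 3 were higher in both types, with adjusted p from 3.44e-16 to 1.28e-06 in marginal and from 1.10e-16 to 8.84e-08 in spindle/root cells. No folds are given for them, since basal cells held no UMI of any. In nuclei the spindle/root level of Prss8 was 75.7 CPM and that of St14 81.3 CPM, against 43.1 and 78.7 CPM in marginal, 7.17 and 25.1 CPM in basal and 0.802 and 6.02 CPM in intermediate nuclei. Spint1 was at 101 CPM in marginal, 42.1 in spindle/root, 33.1 in basal and 8.82 in intermediate nuclei, so basal nuclei held UMIs of all 3 genes. Tmprss2, another protease gene of the list, was at 99.7 CPM in marginal, 34.9 in basal, 28.0 in spindle/root and 3.21 in intermediate nuclei. Nedd4l, which encodes the ubiquitin ligase that removes ENaC from the membrane and that the SGK1 kinase phosphorylates, was higher in spindle/root cells (1.12 ± 0.41, adjusted p = 0.0207), lower in intermediate cells (−1.20 ± 0.31, adjusted p = 0.000729) and at −0.03 ± 0.37 in marginal cells (adjusted p = 0.960).

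Other regulators were highest in basal or intermediate cells. Wnk4, which encodes a kinase that controls sodium and chloride transport, was at 257 ± 52.0 CPM (SD, n = 3) in basal cells, higher by 3.45 ± 0.23 (adjusted p = 7.85e-22), and at 149 CPM in basal nuclei against 13.6 to 27.2 CPM in the other 3 types. Mllt3, which encodes a chromatin reader of the transcription machinery, was at 132 ± 62.3 CPM (SD, n = 3) in basal cells, higher by 4.27 ± 0.40 (adjusted p = 7.11e-14), and at 520 CPM in basal, 174 in spindle/root, 51.7 in intermediate and 21.0 in marginal nuclei. Atp1b1, which encodes a beta subunit of the sodium pump, was higher in intermediate cells by 2.66 ± 0.17 (adjusted p = 4.71e-08), and Sgk3, a kinase gene related to Sgk1, by 0.97 ± 0.17 (adjusted p = 9.25e-07). In nuclei Sgk3 was at 342 CPM in spindle/root, 246 in intermediate, 187 in marginal and 86.0 in basal nuclei.

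**Figure D4:**
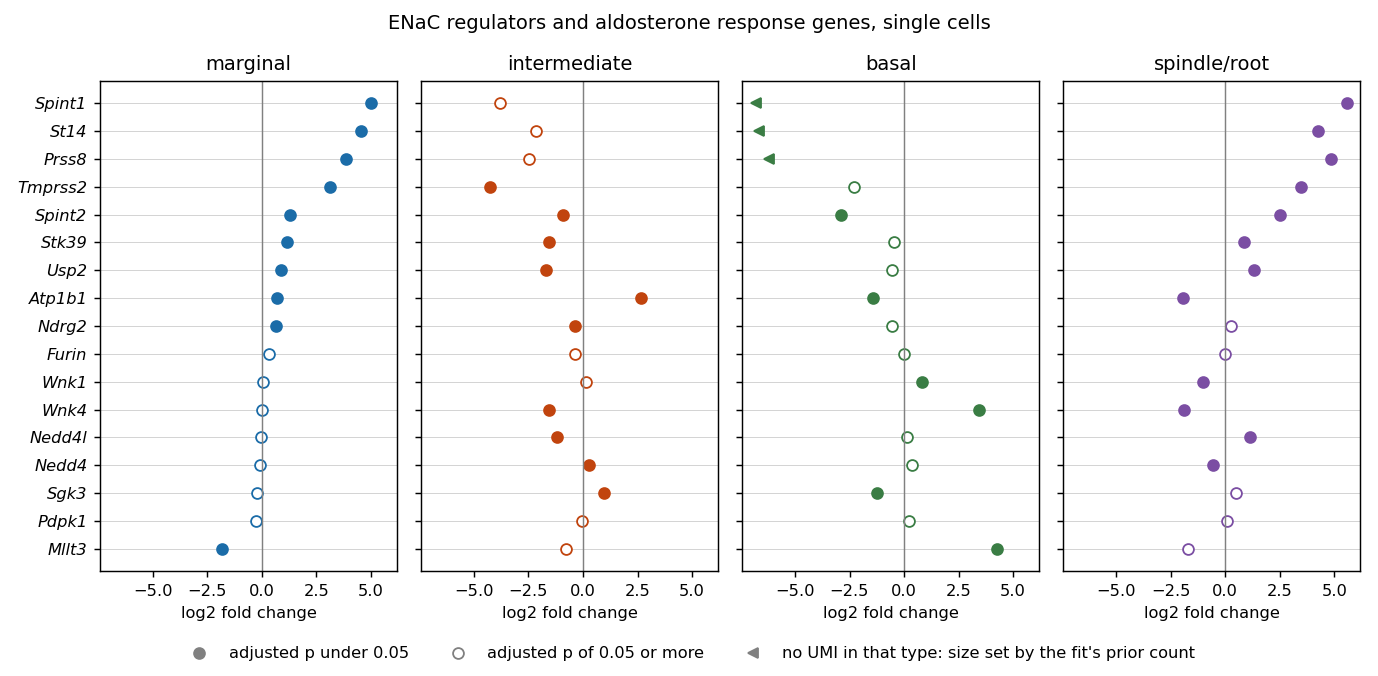
Log2 fold change of the tested ENaC regulators and aldosterone response genes, 1 of the 18 not drawn, in each SV type against the mean of the other 3, from the edgeR fit on single cells, ordered by the marginal value. Filled points have an adjusted p under 0.05, and triangles mark genes with no UMI in that type, whose size is set by the fit's prior count, as are the values of the same genes in the other types. Spint1, St14 and Prss8 lie to the right in marginal and spindle/root cells, and Wnk4 and Mllt3 in basal cells, at 3.45 and 4.27.

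Of 20 glucocorticoid response genes, 9 were tested. In basal cells 5 were higher and 2 lower, with a median of 0.74 against −0.056 over all genes, of which 19.3% were higher and 17.5% lower. In intermediate cells 3 were higher and 3 lower (21.7% and 22.2% of all genes), in marginal cells 2 and 2 (21.4% and 14.7%), and in spindle/root cells 1 and 1 (26.6% and 19.8%). The basal genes that were higher were Cebpb, a transcription factor gene (61.1 ± 3.14 CPM, SD, n = 3), Ddit4, an inhibitor of growth signalling (118 ± 22.2 CPM), Glul, which encodes glutamine synthetase (1839 ± 189 CPM), Dusp1 and Errfi1. Their differences were 2.90 ± 0.46, 2.77 ± 0.34, 1.10 ± 0.11, 1.00 ± 0.23 and 0.74 ± 0.25 on the log2 scale, with adjusted p between 1.70e-13 and 0.0124. Cebpb was the gene called higher in spindle/root cells as well, at 63.3 ± 10.55 CPM (SD, n = 3) and 2.77 ± 0.46 (adjusted p = 5.33e-07). The metallothionein genes Mt1 and Mt2 were lower in basal cells (−0.81 ± 0.13 and −1.62 ± 0.31, adjusted p = 1.80e-07 and 2.93e-05) and higher in intermediate cells (0.60 ± 0.10 and 1.56 ± 0.15, adjusted p = 3.68e-07 and 6.29e-12), as was Glul (1.84 ± 0.10, adjusted p = 3.55e-27). Zbtb16, a further gene of the list, was not tested in cells, and in nuclei it was at 108 CPM in basal and 141 CPM in fibrocyte nuclei against 2.81 to 25.2 CPM in the other SV types. Tat and Pck1, liver genes of the list, had no UMI in any of these types.

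Several of these genes also respond to tissue handling. The summed level of 24 immediate-early and heat-shock genes was 2369 to 3023 CPM in basal cells, 1962 to 2353 in spindle/root, 1188 to 1279 in marginal and 627 to 886 in intermediate cells. The sum was thus highest in basal cells, where Tsc22d3, Fkbp5, Cebpb and Dusp1 were also high, and its part in their levels was not tested. Klf4 and Hspb1 made up a large part of the basal sum, at means of 678 and 509 CPM, against 9.91 and 354 CPM in spindle/root cells. The order of the types without these genes was not computed. Spindle/root cells, next in the sum, held no Fkbp5 UMI and had Tsc22d3 at a mean of 25.3 CPM, but Cebpb at 63.3 CPM. In nuclei the same sum was 555 CPM in basal, 474 in spindle/root, 607 in marginal and 356 in intermediate nuclei. Of the 4 genes, Fkbp5 and Tsc22d3 were highest in basal nuclei among the SV types. Cebpb was at 30.9 CPM in spindle/root, 25.1 in basal, 10.3 in marginal and 0.802 in intermediate nuclei, and Dusp1, itself among the 24 genes, at 158 CPM in marginal, 137 in basal, 56.1 in spindle/root and 36.9 in intermediate nuclei. Of the 24 genes, 13 were tested, and 5 were higher and 1 lower in basal cells (19.3% and 17.5% of all genes). The counts were 5 and 1 in spindle/root cells (26.6% and 19.8%), 1 and 5 in marginal cells (21.4% and 14.7%) and 2 and 7 in intermediate cells (21.7% and 22.2%). Klf4 was at 678 ± 37.4 CPM (SD, n = 3) in basal cells, higher by 5.74 ± 0.25 (adjusted p = 1.52e-16), and at 46.6 CPM in basal nuclei. The median mitochondrial share of UMIs per cell was 16.1% to 18.6% in basal, 9.23% to 12.4% in spindle/root, 28.3% to 31.7% in marginal and 30.9% to 35.4% in intermediate cells.

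Of 16 receptor chaperones and coregulators, 14 were tested. In marginal cells 7 were higher and 1 lower (21.4% and 14.7% of all genes), and in intermediate cells 0 and 5 (21.7% and 22.2%). Spindle/root cells had 2 and 2 (26.6% and 19.8%) and basal cells 3 and 1 (19.3% and 17.5%). Fkbp4, which encodes the co-chaperone that takes the place of FKBP5 on the receptor, was higher in spindle/root cells (202 ± 27.9 CPM, SD, n = 3, 1.23 ± 0.20, adjusted p = 4.14e-07) and in marginal cells (149 ± 9.08 CPM, 0.84 ± 0.17, adjusted p = 3.54e-05) and lower in basal cells (44.5 ± 26.3 CPM, −1.20 ± 0.27, adjusted p = 0.000205). The basal mean of Fkbp4 included 14.4 CPM in capture 3, and in captures 1 and 2 basal cells had 62.8 and 56.3 CPM and intermediate cells 64.0 and 46.3 CPM. In nuclei the spread of Fkbp4 was smaller, at 64.5 CPM in spindle/root, 62.3 in marginal, 39.4 in basal and 28.9 in intermediate nuclei. Bag1, a co-chaperone gene of the heat-shock machinery, was higher in basal cells (509 ± 127 CPM, SD, n = 3, 1.14 ± 0.14, adjusted p = 4.27e-10), and Ncoa3, a receptor coactivator gene, was too (118 ± 9.89 CPM, 0.86 ± 0.24, adjusted p = 0.00314).

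None of 12 genes of steroid synthesis and metabolism and none of 4 other steroid receptor genes passed the filter. Cyp11b1, Cyp11b2 and Cyp21a1, which encode the last enzymes of corticosteroid synthesis, had no UMI in the 4 SV types of cells or nuclei. Cyp11a1, which encodes the enzyme of the first step, was at 21.9 CPM in marginal nuclei, 96 UMIs, against 0.802 to 5.37 CPM in the other SV types. In marginal cells it gave 7 UMIs. Esr1, which encodes an estrogen receptor, was at 46.1 CPM in fibrocyte nuclei and at or below 11.2 CPM in nuclei of the SV types.

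The genes most like each tested member over the 12 sums, by Pearson's r of log2 CPM among 4504 genes, were taken as a description, since the sums of a capture share a library and those of a type share their cells. Sgk1 was most like Pcsk6 (r = 0.98), Itgb5 (0.98) and Rspo3 (0.98), which in nuclei were likewise highest in marginal nuclei, at 600, 1002 and 965 CPM. Unlike Sgk1, each of them was lower in spindle/root nuclei (70.1, 185 and 86.9 CPM) than in basal nuclei (112, 260 and 279 CPM). Nr3c2 was most like Zmiz1 (r = 0.95), Ndrg3 (0.95) and Fn1 (0.94), at 166, 220 and 65.4 CPM in basal nuclei, their highest SV type. Tsc22d3 was most like Bpgm (r = 0.95), Pik3c2a (0.92) and Acsl3 (0.90), of which Bpgm was highest in basal nuclei, at 16.1 CPM, and the other two in spindle/root nuclei, at 199 and 311 CPM. Nr3c1 was most like C330007P06Rik (r = 0.95), Slc30a4 (0.93) and Tmpo (0.93), whose nuclear levels lay between 10.8 and 54.6 CPM.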

How the data were processed

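Single cells (3 captures) and nuclei (1 capture) were compared by type. The deposited values are raw UMI counts per gene and barcode, which the authors made with Cell Ranger 2.0.0 on mm10, with separate gene lists for cells and nuclei. Barcodes with under 200 genes were removed (14, 29 and 99 in cells, 356 in nuclei), as were predicted doublets at 0.8% per 1000 barcodes (1, 15, 20 and 978). Clustering used Seurat 5.3.0 (2000 variable genes without the members and listed genes, scale factor 10000, resolution 0.8, 38 and 40 components), and clusters were named from 93 markers of 15 classes. The naming rule was revised after the clusters were seen, and the members and lists were chosen with earlier results of these data known. Total UMIs per library ran from 2811309 to 8340882 in cells and were 22332501 in nuclei. Sums of at least 5 cells per capture and type were tested with edgeR 4.0.16 (R 4.3.3; quasi-likelihood test, TMM, filterByExpr, Benjamini-Hochberg adjustment over all genes), with the capture as replicate block. Each capture is 1 suspension, so its sums are paired: in 18 same-capture pairs the deviations correlated at r of 0.0417 to 0.197, against -0.16 to 0.0499 in pairs of different captures. Of each list and type, up to 3 genes called higher with the largest and up to 2 called lower with the most negative change were named, with at least 10 UMIs. Nedd4l, Errfi1, basal Dusp1 and the untested list genes were chosen after their values were seen. The 3 genes most like a member were ranked by Pearson's r over genes with at least 100 UMIs. Intervals are exact at 95%, and 3 counts were the limit for a count of 0. Alternatives were DESeq2 1.42.0, no filter, no TMM, no block, other clusterings and each capture left out. The scripts were tested on simulated data. Some listed genes are not reported here.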

Additional observations from a re-analysis of the deposited data

How the results depend on the processing

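Calls of members are given as counts of the genes that passed the filter in each setting, 4 in the main setting. With 1 capture left out, they were 2 in intermediate cells (4 with all captures), 2 to 4 in basal, 1 in marginal and 1 to 2 in spindle/root cells, and 9 to 14 of the pairs (16 with all), with the low basal and pair counts from leaving out capture 2 and the low spindle/root count from leaving out capture 3. The genes tested were 5898, 3728 and 4717 without captures 1, 2 and 3, against 4636, and the cause was not tested. Tsc22d3 was not among them without capture 2, so a lower count there need not be a lost call. With members and listed genes allowed among the variable genes, 2 were called in intermediate and 2 in marginal cells, where resolution 1.2 also gave 2. With cells rich in intermediate RNA left out, only Nr3c1 and Sgk1 were tested. Both were then called in intermediate and in basal cells, and 9 pairs were called. Over the captures left out, Nr3c1 in marginal cells ran from -0.32 to 0.027 and Tsc22d3 in spindle/root cells from -0.72 to 0.70, both reversed without capture 1. Under resolution 1.2, no doublet removal and listed genes allowed, Tsc22d3 in spindle/root cells reversed to -0.17, -0.22 and -0.070, Nr3c2 in marginal cells to 1.60, 1.68 and 1.75, and Nr3c2 in intermediate cells to 0.95, 1.10 and 1.08. The cause was not tested, and in these settings the spindle/root sums held 13 to 16 cells. No reversed value passed the test. With at least 10 cells per sum, only capture 2 gave a basal sum, and Nr3c2 in basal cells was at 1.87. In the other settings that tested it, Nr3c2 was called in basal cells, at up to 4.35 under resolution 1.2 (2.43 in the report). In the main setting it entered the test only through its basal sums. Without TMM, intermediate calls over all genes were 548 higher and 2034 lower (1008 and 1030 with it), and spindle/root calls 1625 and 584 (1234 and 917). Without the replicate block, 1, 4, 4 and 2 members were called in marginal, intermediate, basal and spindle/root cells and 14 pairs, and Nr3c2 in basal cells was at 2.46. No paired analysis was possible because, for nuclei against cells, the nuclei are 1 library. In nuclei, Sgk1 in intermediate nuclei was at 49.0 CPM without doublet removal, and the other 159 levels moved less than their counting interval. Levels of a few UMIs, as for the channel subunits, are limited by depth.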
